A study of Caenorhabditis elegans with 2 samples.

Results

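The genes described here encode J-domain proteins, cyclophilins and heat shock proteins outside the Hsp70 family. They were taken from the WBcel235 annotation (Ensembl release 115) as the protein-coding genes of Caenorhabditis elegans whose symbol begins with dnj-, cyn- or hsp-, without hsp-1, hsp-3, hsp-4, hsp-6, hsp-70 and hsp-110. This rule gave 61 of 19973 protein-coding genes. They comprise 29 J-domain genes, 16 cyclophilin genes and 16 hsp genes. Of the hsp genes, 13 encode small heat shock proteins, and the other 3 (hsp-60, hsp-75 and hsp-90) encode large chaperones, so that the name small chaperone fits only the 13. Ensembl gives each of the symbols hsp-16.1 and hsp-16.48 to a pair of genes, and the second gene of each pair is called here by its RefSeq symbol, hsp-16.11 or hsp-16.49.

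The study located the protein of Y56A3A.18, a zinc finger gene annotated as znf-593, along the genome by ChIP-seq with an antibody against GFP. All samples were whole young adults aged 63 hours of strain RW12265, which carries the insertion Y56A3A.18::TY1::EGFP::3xFLAG, made by CRISPR at the gene's own place on chromosome III. The worms were synchronised by bleaching and L1 starvation, and 2 biological replicates from separate biosamples form 1 group. A control experiment named in the labels was not analysed here, so the values have no background level beside them. The lists hold no measure of the tagged protein itself, and in whole worms fewer bound nuclei and less binding per nucleus cannot be told apart. The yeast counterpart of this zinc finger protein, Bud20, travels with precursors of the large ribosomal subunit out of the nucleus.

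J-domain proteins deliver unfolded clients to Hsp70 and switch on its ATPase activity, so each of them sets a place or a client for a shared Hsp70 partner. Cyclophilins turn the peptide bonds before proline and occur in the cytosol, in the secretory pathway and in the spliceosome. Small heat shock proteins hold unfolding proteins without ATP, and many of their genes in C. elegans are switched on by the heat shock factor HSF-1. Hsp60 is the barrel-shaped folding machine of the mitochondrial matrix, and it works with a small lid protein.

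The DNA under 6 of the bound members' peaks is shown from the RefSeq genome of WBcel235 (the same assembly as ce11), 5′ to 3′ on the member's own strand. These are the 4 strongest peaks, at hsp-60, dnj-19, dnj-9 and dnj-13, and the windows of dnj-14 and cyn-3, which hold the most matches to the words searched. Capitals mark matches to GAANNTTC, a pair of inverted heat shock factor half-sites, or, in the window of dnj-14, to the word ACCACT and, read on the opposite strand, to the word AGACGC and the word that overlaps it, GACGCA. The window of dnj-19 was shortened to leave out an exon of nhr-47 and begins 2 bp downstream of the summit on the strand shown.
hsp-60 (chrIII:1618978-1619277, plus strand): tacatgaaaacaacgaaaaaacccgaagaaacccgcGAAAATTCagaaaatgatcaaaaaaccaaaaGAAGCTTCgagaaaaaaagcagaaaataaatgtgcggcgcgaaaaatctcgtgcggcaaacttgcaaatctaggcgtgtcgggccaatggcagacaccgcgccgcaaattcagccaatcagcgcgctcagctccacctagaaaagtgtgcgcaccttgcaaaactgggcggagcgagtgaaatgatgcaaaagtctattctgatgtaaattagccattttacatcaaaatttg
dnj-19 (chrV:5505104-5505252, minus strand): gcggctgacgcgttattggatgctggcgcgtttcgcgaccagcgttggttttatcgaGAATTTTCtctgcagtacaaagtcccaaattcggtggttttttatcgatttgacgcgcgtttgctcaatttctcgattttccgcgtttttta
dnj-9 (chrII:4851664-4851963, plus strand): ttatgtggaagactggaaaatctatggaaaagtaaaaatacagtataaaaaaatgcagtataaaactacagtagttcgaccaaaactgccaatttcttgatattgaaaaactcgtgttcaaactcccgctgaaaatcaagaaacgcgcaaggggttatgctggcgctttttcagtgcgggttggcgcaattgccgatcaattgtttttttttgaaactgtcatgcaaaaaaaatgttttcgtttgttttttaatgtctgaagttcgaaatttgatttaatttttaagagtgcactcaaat
dnj-13 (chrII:11545365-11545664, plus strand): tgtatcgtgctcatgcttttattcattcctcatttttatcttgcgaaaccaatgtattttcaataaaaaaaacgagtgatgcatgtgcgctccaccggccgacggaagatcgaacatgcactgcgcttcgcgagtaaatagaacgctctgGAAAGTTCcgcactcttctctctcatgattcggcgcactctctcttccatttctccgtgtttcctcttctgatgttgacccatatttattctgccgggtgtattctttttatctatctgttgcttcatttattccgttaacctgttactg
dnj-14 (chrX:4711919-4712218, minus strand): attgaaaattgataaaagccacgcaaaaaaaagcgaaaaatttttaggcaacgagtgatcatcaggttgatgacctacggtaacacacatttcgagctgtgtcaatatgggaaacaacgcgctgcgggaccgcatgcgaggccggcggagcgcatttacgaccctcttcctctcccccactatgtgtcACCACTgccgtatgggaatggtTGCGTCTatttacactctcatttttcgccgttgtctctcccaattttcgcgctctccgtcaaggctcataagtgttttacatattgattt
cyn-3 (chrV:15189596-15189895, plus strand): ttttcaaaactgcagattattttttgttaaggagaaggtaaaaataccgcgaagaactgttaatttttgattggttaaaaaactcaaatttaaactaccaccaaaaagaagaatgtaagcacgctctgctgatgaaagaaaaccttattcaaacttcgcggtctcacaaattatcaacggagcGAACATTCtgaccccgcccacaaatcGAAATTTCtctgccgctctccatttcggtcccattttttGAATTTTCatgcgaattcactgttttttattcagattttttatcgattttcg

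Peaks lay at the starts of 12 of the 61 members (19.7%), beside 777 of all 19973 protein-coding genes (3.89%). Bound means that the window around a gene's 5′ end, from 1000 bp before it to 500 bp past it on the gene's strand, held a summit of the conservative list. That is the shorter of the deposited thresholded lists of both replicates together, with 1687 peaks. By family, 6 of 29 J-domain genes (20.7%), 4 of 16 cyclophilin genes (25%), 1 of 13 small heat shock protein genes (7.69%) and 1 of the other 3 hsp genes (33.3%) were bound. These are counts in 1 group of worms, and no test of the difference was made. The members were chosen with earlier results of these data known. The strongest peaks were those of hsp-60, dnj-19, dnj-9 and dnj-13, and the 4 bound cyclophilin genes included 3 of the 4 weakest. Of the 12 peaks, 6 had a pooled signal above 71.9, the median of the conservative list. The median pooled signal was 77.4 over the bound members and 75.7 over all 777 bound protein-coding genes.

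**Figure D1:**
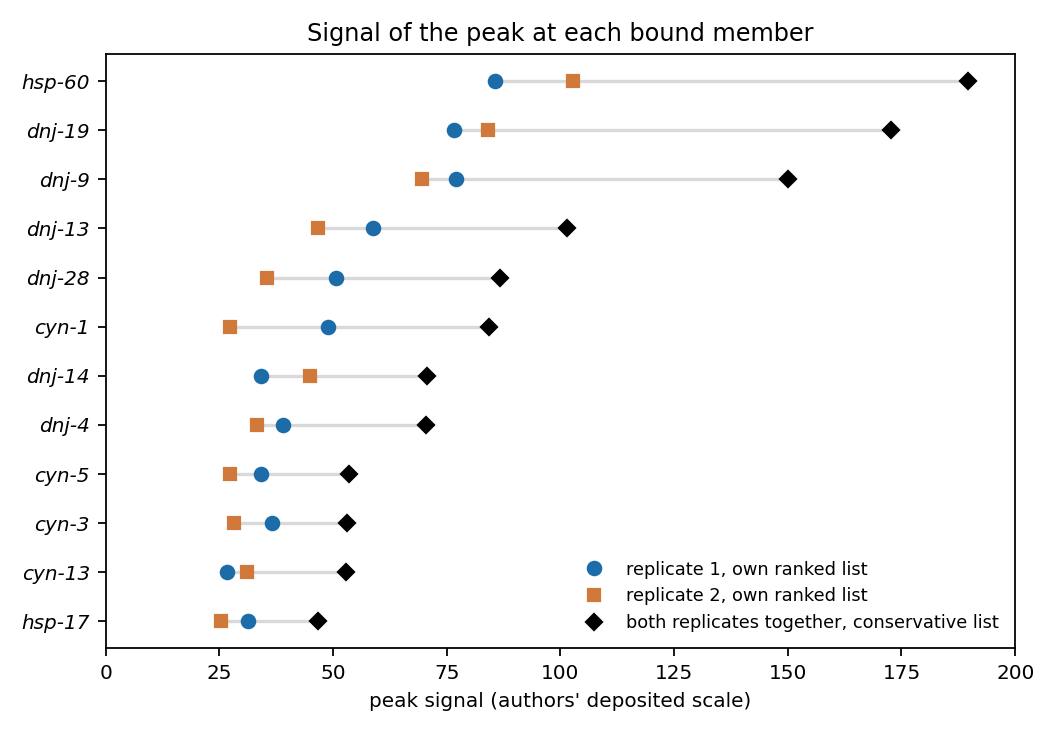
Peak signal at each of the 12 bound members on the horizontal axis, in the units of the authors' deposited lists, which are not named in the sources used here. Circles and squares are the highest peak in the window in the ranked list of replicate 1 and of replicate 2, diamonds are the pooled signal in the conservative list, and the 4 upper genes (hsp-60, dnj-19, dnj-9 and dnj-13) lie above 100 in the pooled signal.

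Among the J-domain genes, dnj-19 and dnj-13 encode cytosolic co-chaperones of Hsp70. The gene dnj-19 (WBGene00001037, chrV:5503033-5504857, minus strand) encodes a class I protein with the same domain order as bacterial DnaJ. Its peak had a signal of 76.7 in replicate 1 and 84.1 in replicate 2 (80.4 ± 5.23, SD, n = 2) and a pooled signal of 172.8, rank 64 of 1687. The replicate values overlapped in height with those of dnj-9 and lay above those of the other bound J-domain genes. The summit, 397 bp upstream of dnj-19, stood 1 bp inside the first exon of the divergent gene nhr-47, a nuclear hormone receptor gene, in its untranslated region. It also lay within 7 bp and 207 bp of the starts of the non-coding RNA genes C24G6.10 and C24G6.12, so the peak cannot be given to dnj-19 alone.

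The gene dnj-13 (WBGene00001031, chrII:11545701-11547360, plus strand) encodes a class II protein of the human DNAJB1 type, which works with Hsp70 and Hsp110 in taking apart protein aggregates. Its stronger peak reached 58.7 in replicate 1 and 46.8 in replicate 2 (52.8 ± 8.41, SD, n = 2), with a pooled signal of 101.4, rank 313. The summit lay 186 bp upstream of the start, inside an intron of dhgd-1, and the replicate summits were 2 bp apart. A further, weak summit of the conservative list (pooled signal 11.8, rank 1631) lay 25 bp downstream of the start. The window of F54D5.9, an F-box gene on the opposite strand whose start is 687 bp away, also held the stronger summit, as did those of the non-coding RNA genes annotated as F54D5.22.

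The gene dnj-9 (WBGene00001027, chrII:4852056-4857820, plus strand) was the other J-domain gene with a peak above 100. It measured 77.1 in replicate 1 and 69.5 in replicate 2 (73.3 ± 5.37, SD, n = 2), with a pooled signal of 150.0, rank 93. The summit was intergenic, 242 bp upstream of the start, and lay in no other protein-coding gene's window. Together with dnj-13 it was 1 of the 2 members that stayed bound in all 8 alternative lists and windows tried.

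The gene dnj-14 (WBGene00001032, chrX:4709741-4711748, minus strand) encodes the cysteine string protein of synaptic vesicles, a co-chaperone that keeps the release machinery of neurons folded. Its peak measured 34.1 in replicate 1 and 44.9 in replicate 2 (39.5 ± 7.64, SD, n = 2), with a pooled signal of 70.7, rank 879. The summit, 321 bp upstream of dnj-14, was nearer to the start of glit-1, a divergent gene for a gliotactin-like transmembrane protein, at 210 bp. It was nearer still to the non-coding RNA genes DL2.1 at 110 bp and DL2.2 at 85 bp.

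The remaining bound J-domain genes were dnj-28 (WBGene00001046) and dnj-4 (WBGene00001022), both on chromosome I. The peak of dnj-28 had a signal of 50.6 in replicate 1 and 35.5 in replicate 2 (43 ± 10.7, SD, n = 2), with a pooled signal of 86.8, rank 497. It lay 92 bp upstream of dnj-28 and 482 bp from the divergent gene supr-1. The peak of dnj-4 measured 39.0 in replicate 1 and 33.4 in replicate 2 (36.2 ± 3.96, SD, n = 2), with a pooled signal of 70.5, rank 885. It lay 86 bp upstream of dnj-4, within an untranslated exon of erm-1, the gene for the single ezrin-radixin-moesin protein of the worm, which ends 82 bp before dnj-4 on the same strand. The replicate ranges of dnj-28 and dnj-4 overlapped.

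The 23 J-domain genes that were not bound included 4 types that act in the endoplasmic reticulum. The genes dnj-7 (the p58IPK type), dnj-20 (the human DNAJB11 type) and dnj-29 (the Sec63 type, part of the protein import channel) had no listed peak in replicate 1, and 18.2, 11.3 and 25.1 in replicate 2. The gene dnj-27, of the disulfide-reducing ERdj5 type, had no listed peak in either replicate. Of the mitochondrial types, dnj-10, related to human TID1, had 20 in replicate 1 and 15.6 in replicate 2. The import motor gene dnj-21 had 31.5 in replicate 1 and 9.2 in replicate 2. The class I gene dnj-12 had 17.3 in replicate 1 and 19 in replicate 2, and dnj-11, related to ribosome-bound zuotin of yeast, had none in replicate 1 and 12.7 in replicate 2. In each replicate where they had a listed peak these genes lay below the lowest bound J-domain value, which was 34.1 in replicate 1 and 33.4 in replicate 2.

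The bound cyclophilin genes were cyn-1, cyn-3, cyn-5 and cyn-13. The strongest was cyn-1 (WBGene00000877, chrV:14356076-14356822, plus strand), at 48.9 in replicate 1 and 27.3 in replicate 2 (38.1 ± 15.3, SD, n = 2), with a pooled signal of 84.2, rank 547. Its replicates stood furthest apart of the 12 bound members, with a ratio of replicate 1 to replicate 2 of 1.79. The summit was intergenic, 136 bp upstream of the start. It was the highest of the 4 bound cyclophilin genes in replicate 1 and the lowest of them in replicate 2.

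The peak of cyn-3 (WBGene00000879, chrV:15189927-15190926, plus strand), a gene for a single-domain cyclophilin, measured 36.6 in replicate 1 and 28.2 in replicate 2 (32.4 ± 5.94, SD, n = 2), with a pooled signal of 53.1, rank 1412. It lay 181 bp upstream of cyn-3 and 2368 bp from the start of cyn-7, another single-domain cyclophilin gene nearby, which was not bound and had no listed peak in replicate 1 and 19.8 in replicate 2. The peaks of cyn-5 and cyn-13 were the only ones among the 12 bound members whose summits lay downstream of the 5′ end.

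The gene cyn-5 (WBGene00000881), on chromosome I, encodes a cyclophilin of the secretory pathway. Its peak measured 34.1 in replicate 1 and 27.4 in replicate 2 (30.8 ± 4.74, SD, n = 2), with a pooled signal of 53.5, rank 1404, and its summit stood in an intron of cyn-5, 218 bp past the start. The gene cyn-13 (WBGene00000889, chrIV:17111081-17116657, minus strand) encodes a cyclophilin with an RNA-binding domain whose human counterpart, PPIE, sits in the spliceosome. Its peak measured 26.8 in replicate 1 and 31.2 in replicate 2 (29 ± 3.11, SD, n = 2), with a pooled signal of 52.9, rank 1418. The summit stood in a coding exon of cyn-13, 122 bp past the start. The upstream gene on the same strand, which ends 114 bp before cyn-13, is uaf-2, the gene for the small subunit of the splicing factor U2AF. The replicate ranges of cyn-3, cyn-5 and cyn-13 overlapped, so their order is not set by these data.

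The other cyclophilin genes with human counterparts in the spliceosome were not bound. The genes cyn-4, cyn-15 and cyn-16 had no listed peak in either replicate. The gene cyn-10 had none in replicate 1 and 9.8 in replicate 2, cyn-11 had none and 15.2, and cyn-12 had 21.0 in replicate 1 and 21.2 in replicate 2. All of these lay below the values of cyn-13.

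The strongest peak of all 61 members was that of hsp-60 (WBGene00002025, chrIII:1619742-1625803, plus strand), the mitochondrial chaperonin gene. It measured 85.7 in replicate 1 and 102.7 in replicate 2 (94.2 ± 12, SD, n = 2), with a pooled signal of 189.7, rank 52 of 1687. Both replicate values lay above those of every other member in the same replicate, and its range did not overlap with that of dnj-19, the next in order. The summit lay in the 813 bp between hsp-60 and the divergent gene Y22D7AL.10, which RefSeq names as the mitochondrial 10 kDa heat shock protein, the lid partner of Hsp60. It stood 614 bp upstream of hsp-60 and 199 bp upstream of Y22D7AL.10. The stretch printed above, which is the peak itself, holds 2 matches to GAANNTTC.

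The other large chaperones were not bound. The gene hsp-75, which encodes the mitochondrial Hsp90 of the TRAP1 type, had 25 in replicate 1 and 20 in replicate 2. The gene hsp-90, for the cytosolic Hsp90, had 18.8 in replicate 1 and 12.1 in replicate 2. The nearest conservative summit lay 905 bp downstream of the start of hsp-90, inside the gene and outside the window.

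Of the 13 small heat shock protein genes, hsp-17 (WBGene00002021, chrV:8384799-8385929, minus strand) was the bound one, and its peak was the weakest of the 12. It measured 31.3 in replicate 1 and 25.3 in replicate 2 (28.3 ± 4.24, SD, n = 2), with a pooled signal of 46.7, rank 1507. The summit was intergenic, 302 bp upstream of hsp-17, and the replicate summits were 141 bp apart, the widest gap among the bound members. The heat-inducible hsp-16 genes stand in back-to-back pairs, and none of them was bound. The windows of the pair hsp-16.2 and hsp-16.41 shared a peak of 23.8 in replicate 1 and a different peak of 17 in replicate 2. The summit lay 249 bp past the start of hsp-16.2 in replicate 1. In replicate 2 it lay 51 bp past the start of hsp-16.41, so the replicates did not list the same place. The genes hsp-16.48 and hsp-16.49 had no listed peak in either replicate, and hsp-16.1 and hsp-16.11 had none in replicate 1 and 6.3 and 18.0 in replicate 2. In the hsp-12 group, hsp-12.3 had none in either replicate, and hsp-12.1, hsp-12.2 and hsp-12.6 had none in replicate 1 and 6.6, 19.1 and 13.5 in replicate 2. The genes hsp-25 and hsp-43 had 29.7 and 25.3 in replicate 1 and 10.2 and 15.5 in replicate 2.

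In the separate ranked lists, which keep peaks far below the threshold, the members were spread over the whole range. Replicate 1 listed a peak in the window of 34 of 61 members (55.7%) beside 10545 of all protein-coding genes (52.8%), and replicate 2 listed one at 45 of 61 members (73.8%) beside 10928 (54.7%). The ranked list of both replicates had a peak at 44 of 61 members (72.1%) beside 14175 (71.0%). A listed peak of any height therefore says little by itself, since most genes had one in the combined list. All protein-coding genes were then ordered by their highest listed peak, so that the median of all genes is 50. The median member stood at percentile 72.9 in replicate 1, 69.1 in replicate 2 and 75.8 in the combined list. The bound members raise these values, since the combined list holds every conservative peak. Over the 49 members not bound, the median was 23.6 in replicate 1, 59.0 in replicate 2 and 60.7 in the combined list. The unbound members as a group were thus not raised in replicate 1. Small heat shock protein genes had the lowest family median in the combined list, at percentile 39.1, against 83.0 for J-domain genes and 71.2 for cyclophilin genes. In replicate 1 their median of 23.6 is the place of a gene with no listed peak, since 5 of the 13 had one, while in replicate 2 it was 67.6, above the 64.7 of J-domain genes and below the 71.5 of cyclophilin genes. The order of the families thus changed between the lists.

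**Figure D2:**
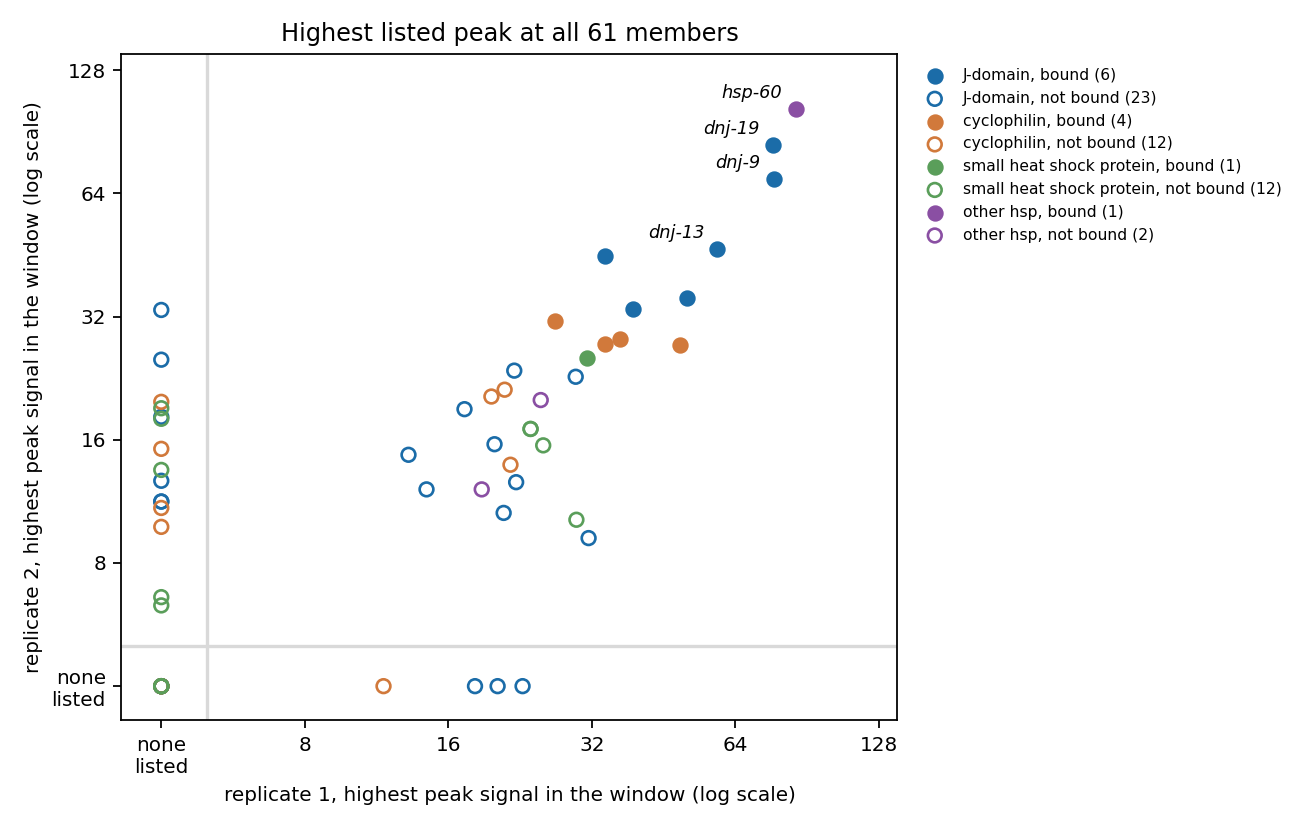
Highest listed peak signal in the window of each of the 61 members, in replicate 1 on the horizontal and replicate 2 on the vertical log axis, with members that had no listed peak placed beyond the grey lines. Filled points are the 12 bound members, open points the 49 that were not bound, and 12 open points coincide at the lower left, where neither replicate listed a peak.

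The replicates ordered the bound members alike in part. Replicate 1 had the higher signal at 8 of the 12 and replicate 2 at the other 4, and Spearman's rho between the replicates over the 12 genes was 0.77, a description of genes that share the same pair of libraries. Their summits lay 2 to 141 bp apart, with a median of 11.5 bp. The 12 were called by a threshold on reproducibility, so likeness in order and place among them is in part set by the call. Neither value is given here for all bound protein-coding genes. Each replicate's own thresholded list was shorter than the conservative list, at 817 peaks for replicate 1 and 754 for replicate 2. In that of replicate 1, 6 of 61 members were bound (9.84%) beside 2.00% of all protein-coding genes, and in that of replicate 2 it was 4 of 61 (6.56%) beside 1.85%. Both lists held dnj-9, dnj-13, dnj-19 and hsp-60, and that of replicate 1 also held cyn-1 and dnj-28. The remaining 6 bound members (cyn-3, cyn-5, cyn-13, dnj-4, dnj-14 and hsp-17) were in the conservative list and in neither of these.

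Calls also moved with the list and the window. In the other thresholded list of both replicates, 9 of 61 members were bound (14.8%) beside 4.01% of all protein-coding genes, without cyn-3, dnj-28 and hsp-17. Among peaks at or above the median signal, 6 members were bound (9.84%) beside 2.20%, and cyn-3, cyn-5, cyn-13, dnj-4, dnj-14 and hsp-17 were lost. When the window ran from 500 bp before to 200 bp past the start, 10 members were bound (16.4%) beside 2.67%, without cyn-5 and hsp-60. With 2000 bp before and 500 bp past the start, 13 were bound (21.3%) beside 5.41%, and hsp-16.48 was added. That summit lay 1310 bp from the start of hsp-16.48, beyond the far end of its divergent neighbour hsp-16.1, which was not bound. When each summit was given only to the nearest protein-coding start, 9 were bound (14.8%) beside 3.22%, and dnj-14, dnj-19 and hsp-60 were lost to their divergent neighbours. When any base of a peak in the window was enough, 13 were bound (21.3%) beside 4.28%, and hsp-12.3 was added. The share of members bound lay above that of all protein-coding genes in each of these 8 alternatives. They draw on the same pair of libraries, largely on the same peaks, so they are not separate support.

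**Figure D3:**
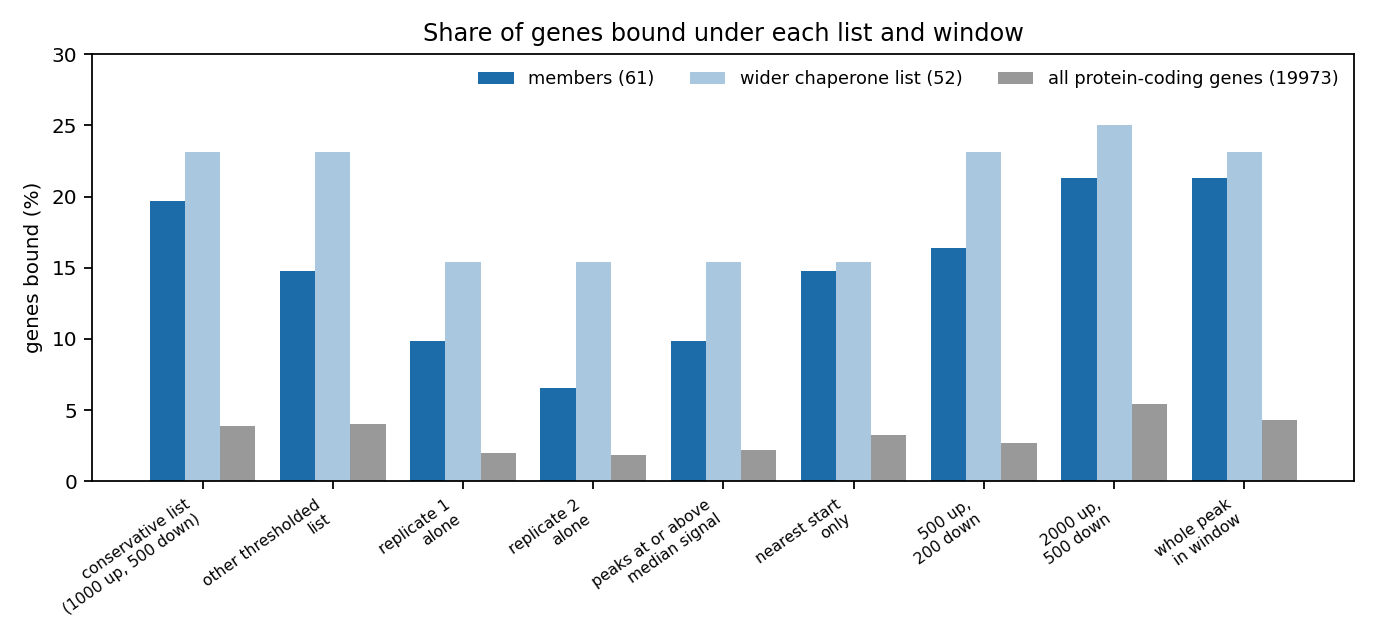
Percentage of genes bound on the vertical axis, under the conservative list and each of the 8 alternative lists or windows. The groups are the 61 members, 52 genes of a chosen wider chaperone list and all 19973 protein-coding genes. The bars are single counts with no error, and those of the members lie between 6.56% and 21.3%, against 1.85% to 5.41% for all protein-coding genes.

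The window, from 1000 bp before the start to 500 bp past it, keeps the summits near the starts and lies mostly upstream. Of the 12 bound members, 10 had the summit upstream (83.3%), beside 606 of the 777 bound protein-coding genes (78.0%), and the median position was 183.5 bp upstream for the members and 239 bp upstream for all bound genes. A summit was shared with the window of another protein-coding gene at 5 of the 12 (41.7%), beside 283 of 777 (36.4%). These 5 are the pairs dnj-13 with F54D5.9, dnj-14 with glit-1, dnj-19 with nhr-47, dnj-28 with supr-1 and hsp-60 with Y22D7AL.10. The start of the bound member was the nearest protein-coding start for 9 of the 12 (75.0%), beside 644 of 777 (82.9%). No summit of a bound member lay within 200 bp of a tRNA, snRNA or snoRNA gene. Of all 1687 conservative summits, 393 did (23.3%), but these include summits outside the windows of protein-coding genes. The share among the 702 summits that bind a protein-coding gene was not counted.

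**Figure D4:**
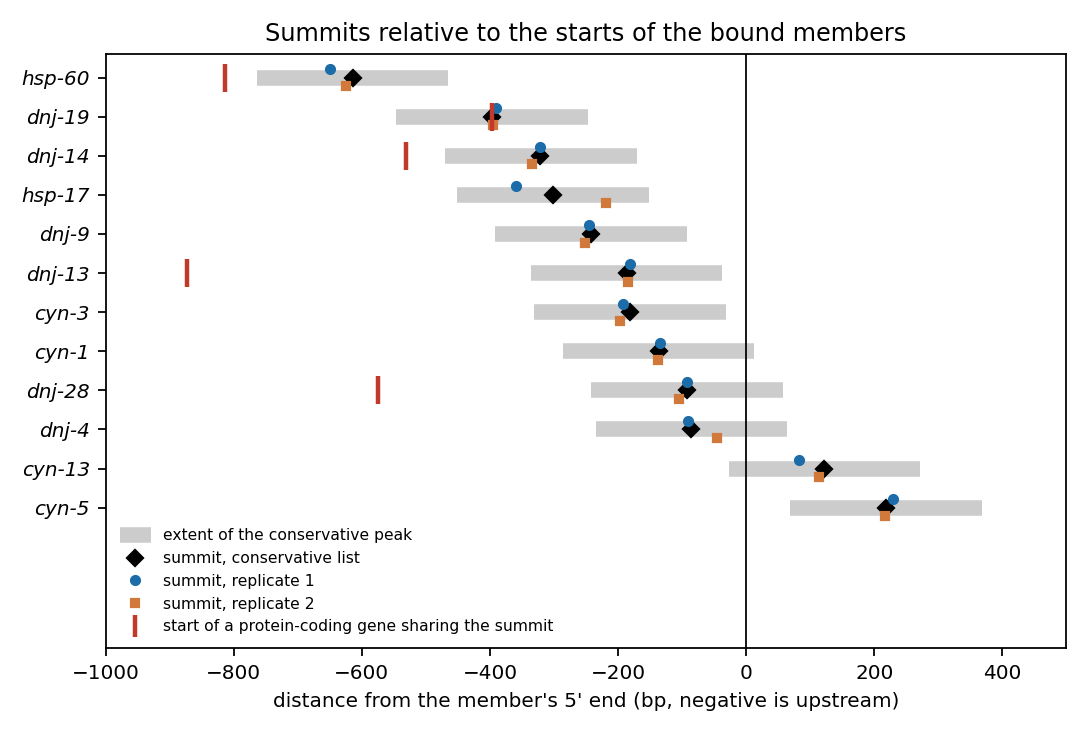
Position of the conservative peak (grey bar) and of the summits relative to the 5′ end of each bound member, in bp with negative values upstream, and red marks at the starts of protein-coding genes that share the summit. The summits run from 614 bp upstream at hsp-60 to 218 bp downstream at cyn-5, and the replicate summits of hsp-17 stand 141 bp apart.

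In C. elegans many genes lie close behind another gene on the same strand and are transcribed with it as an operon, in which case the 5′ end of the downstream gene is a trans-splice site and not a promoter. An upstream neighbour on the same strand ending within 500 bp was found at 6 of the 12 bound members (50%), beside 14 of the 49 members not bound (28.6%), 206 of the 777 bound protein-coding genes (26.5%) and 3609 of all protein-coding genes (18.1%). These 6 are dnj-4, dnj-9 and all 4 bound cyclophilin genes. The gaps were 82 bp at dnj-4, 114 bp at cyn-13, 159 bp at cyn-5, 335 bp at cyn-1, 339 bp at cyn-3 and 395 bp at dnj-9. Operon annotation was not used, so it was not tested which of the 6 are operon genes. The other 6 bound members had a divergent upstream neighbour (50%), beside 26 of the 49 members not bound (53.1%) and 9070 of all protein-coding genes (45.4%).

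Of the 49 members that were not bound, 12 had no listed peak in either replicate. These were dnj-1, dnj-25, dnj-26, dnj-27 and dnj-30, the cyclophilin genes cyn-4, cyn-6, cyn-15 and cyn-16, and the small heat shock protein genes hsp-12.3, hsp-16.48 and hsp-16.49. How many of all protein-coding genes had none in either replicate was not counted. In replicate 1, 22 of the 49 had a listed peak, beside 52.8% of all protein-coding genes. Their signals were 11.7 to 31.5, with a median of 21.3. In replicate 2, 33 of the 49 had one, beside 54.7% of all protein-coding genes, with signals of 6.3 to 33.2 and a median of 15.2. The lowest value among the bound members was 26.8 in replicate 1 and 25.3 in replicate 2, so that bound and unbound members overlapped in each replicate. The nearest conservative summit lay 642 to 82061 bp from the starts of the 49, with a median of 8953 bp.

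The threshold that sets the call is one on reproducibility, so signal alone does not order the members around it. The unbound members with the highest signal in the combined ranked list were dnj-22 with 47.5, dnj-5 with 47.3 and hsp-75 with 47.2. Each lay above the 46.7 of hsp-17, which was bound. Their −log10 IDR (irreproducible discovery rate, low for peaks that hold a similar place in both callings compared) was 0.44, 0.87 and 1.37. It was 2.07 for hsp-17 and 2.05 for cyn-13, the bound members nearest the threshold of 2. The highest combined peaks of the unbound hsp-12.3 (1.18), cyn-12 (1.17) and dnj-15 (1.0) stood nearer to it than those of dnj-22 and dnj-5. At hsp-12.3, however, that peak had a signal of 3.3, the lowest among the unbound members with one. The separate replicate lists held no peak at hsp-12.3. Neither dnj-22 nor dnj-5 had a listed peak in replicate 1, while replicate 2 gave 11.3 for dnj-22 and 33.2 for dnj-5. The gene hsp-75 had 25 in replicate 1 and 20 in replicate 2, lower than hsp-17 in both (31.3 and 25.3).

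The heat shock factor word GAANNTTC, which reads the same on both strands, occurred in 5 of the 12 members' windows of 300 bp around the summit (41.7%). It occurred in 109 of the 702 summit windows that bind any protein-coding gene (15.5%), in 287 of all 1687 conservative windows (17%) and in 3702 of 19973 promoters of the same length, from 250 bp upstream to 50 bp downstream (18.5%). The matches were 3 at cyn-3, 2 at hsp-60 and 1 each at cyn-13, dnj-13 and dnj-19, so the word was present under the peaks of hsp-60 and dnj-13 and not under that of hsp-17, the small heat shock protein gene. The windows of dnj-19, hsp-60 and dnj-13 lie near other gene starts as well. These are matches of letters, not measured heat shock factor sites, and the list of 12 is short.

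Words of 6 bases that earlier work on these same data found more often at the summits than beside them were also counted. At least 1 of the word AGACGC, the word GACGCA and the word ACCACT, on either strand, occurred in 1 of the members' 12 windows (8.33%), that of dnj-14, which held all of them. The share was 282 of 702 (40.2%) for summits that bind any protein-coding gene, 658 of 1687 (39.0%) for all conservative summits and 3910 of 19973 (19.6%) for promoters. Since the words were picked for being frequent at these same summits, the shares at summits are a description only. The single words occurred in 133, 153 and 118 of the 702 windows (18.9%, 21.8% and 16.8%), and the first word overlaps the next by 5 letters. The median GC content of the windows was 43.2% for the members, 40.3% for summits that bind a protein-coding gene and 34.3% for promoters, and it ran from 28.3% at dnj-4 to 49.3% at cyn-13.

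A wider list of other chaperone network genes held 53 symbols, of which 52 matched a gene. It was chosen with earlier results of these data known, and it includes hsf-1 and its regulators hsb-1, ddl-1 and ddl-2. Of its 52 genes, 12 were bound (23.1%), beside 3.89% of all protein-coding genes. The Hsp70 genes and their helpers made up 6 of these. A single peak of 325.6 was shared by F44E5.4 and F44E5.5, which encode heat-inducible Hsp70 proteins. The others were bag-1 (141.6) and hsp-110 (85.7), whose products release nucleotide from Hsp70, hsp-3 (98.0), the Hsp70 of the endoplasmic reticulum, and hsp-1 (57.1), the cytosolic Hsp70 with which J-domain proteins work. The Hsp70 genes hsp-4, hsp-6 and hsp-70 were not bound. Of the 8 genes for subunits of the cytosolic chaperonin, 2 were bound, cct-8 (277.9) and cct-1 (109.2). Of the 6 genes for prefoldin, which hands it clients, pfd-1 was the bound one (70.9). The list also held crt-1 (79.5), the calreticulin gene, and pdi-6 (71.9), a protein disulfide isomerase gene. Among these, cct-8, hsp-110, pfd-1 and F44E5.5 were not the nearest protein-coding start to their summits. The peak of hsp-60 was lower than those of cct-8 and of the F44E5.4 and F44E5.5 pair, and higher than all others on this list.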

How the data were processed

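ChIP-seq of the tagged Y56A3A.18 protein was analysed in 2 biological replicates of whole young adults, starting from deposited peak lists. The assembly is ce11 per the file headers, and the sources used here give no aligner, peak caller or version. Each replicate has a ranked and a thresholded list. The authors also deposited lists of both replicates together, among them the conservative list of 1687 peaks. The signal of each peak is the authors' deposited enrichment value, whose scale is not named. The deposited score is the IDR rank as scaled by the authors. Significance stands in the deposited lists as −log10. Of the 94653 peaks in the combined ranked list, which held all 1687 conservative peaks, 1797 had −log10 IDR of at least 2. The authors' values describe and rank peaks within a list. No read counts were used, so the depth is unknown, and no interval or floor is given.

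Summits were compared with gene starts of Ensembl release 115 in Python 3.11.15 with pandas 2.3.3, after checking that no peak runs past the end of its reference chromosome. Replicate values are those of the highest peak in the gene's window in that replicate's own ranked list, and mean ± SD has n = 2. The pooled signal is not their mean. Window calls were tested on simulated data. The members and lists were chosen with earlier results of these data known. Named were every bound member, every member whose call differed under an alternative, the 3 unbound members with the highest combined signal, and every bound gene of the wider list except 1, which is not reported here. Other members were named by their role. The windows that bind any protein-coding gene were added to the word counts after the data were seen. No test was made, because there is 1 group and the control was not analysed here.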

Additional observations from a re-analysis of the deposited data

How the results depend on the processing

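The conservative list gave 12 bound members, 6 J-domain, 4 cyclophilin and 2 hsp genes, 12 genes of the wider chaperone list and 777 protein-coding genes. With each replicate's own list alone, which leaves the other replicate out, the count was 4 to 6 members, 3 to 4 J-domain genes, 0 to 1 cyclophilin genes and 369 to 400 protein-coding genes, and both lists gave 1 hsp gene and 8 genes of the wider list. Without replicate 1 the 4 members were dnj-9, dnj-13, dnj-19 and hsp-60. Peaks at or above the median signal gave 6 members, 1 cyclophilin gene, 1 hsp gene and 439 protein-coding genes. The hsp count was also 1 in the other thresholded list, in the narrower window (500 bp before to 200 bp past the start) and with the nearest start only. The other counts under these settings, the wider window and the whole peak stayed within 1.5 times those of the conservative list. No paired analysis was possible because both replicates belong to 1 group. The replicate lists are shorter, and why calls were lost in them was not tested. Precision is limited by 2 replicates, by unknown depth and by the control not being analysed here. A peak between divergent genes cannot be given to either of them.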
